A study of Mus musculus with 8 samples.

Results

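H3K27ac peaks were examined at 10 mouse genes of cell cycle control in Oli-neu cells: the D-type cyclins Ccnd1, Ccnd2 and Ccnd3, the cyclin-dependent kinase (Cdk) inhibitors Cdkn1a, Cdkn1b, Cdkn1c, Cdkn2a and Cdkn2c, and the transcription factor genes Myc and Mycn. The genes were listed by name, out of 21951 protein-coding genes of the GENCODE M21 annotation on GRCm38/mm10, and each peak that touched the gene body or lay within 20 kb of it was taken. This gave 25 of the 28924 peaks of the list from proliferating cells and 19 of the 27965 peaks of the list from differentiating cells.

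Oli-neu is a mouse line of oligodendrocyte progenitors carrying the activated neu (Erbb2) oncogene, derived from embryonic cells and labelled as C57BL/6. Proliferating cells were kept with bFGF at 10 ng/ml, PdgfBB at 1 ng/ml, T3 at 340 ng/ml and thyroxine at 400 ng/ml, whereas differentiating cells had 1 day without growth factors and with the erb inhibitor PD174265 at 1 μM. The culture methods of the study give a longer differentiation than these labels, and which applies to the library is not known here. ChIP-seq for H3K27ac (histone H3 acetylated at lysine 27, which marks promoters and enhancers in use) gave 1 library per state. With 1 library per state no difference between the states could be tested or set against a spread between replicates, and a peak listed in only 1 state may be a change or a call that fell just short in the other library.

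D-type cyclins bind Cdk4 and Cdk6 and start the phosphorylation of the retinoblastoma protein, which frees E2F factors to turn on the genes of DNA replication. Inhibitors of the Cip/Kip family (Cdkn1a, Cdkn1b, Cdkn1c) act mainly on cyclin-Cdk complexes, those of the Ink4 family (Cdkn2a, Cdkn2c) bind Cdk4 and Cdk6 themselves, and Myc proteins with their partner Max drive growth and entry into the cycle. In the oligodendrocyte lineage, mitogens such as PDGF keep progenitors dividing, and p27, the product of Cdkn1b, is known for its part in their exit from the cycle before differentiation.

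Each peak carries the authors' fold enrichment over the local background, a ratio, and a significance as −log10 q, where a larger value means a stronger call. Both were ranked within their own list, and a percentile is the share of that list's peaks with a lower value. The 2 lists cover 22.0 Mb in proliferating and 23.5 Mb in differentiating cells, with weakest q values of 0.0995 and 0.0983. Since reads per peak are not among the values, the depth behind a peak is unknown, and the methods of the study give more uniquely mapped reads for the differentiating library. Of 10 oligodendrocyte lineage markers, Olig1, Olig2, Sox10 and Ptprz1 had a promoter peak in both lists. Among 5 genes each for neurons, astrocytes, microglia and endothelium, Slc1a3 alone had one in proliferating cells, against 4 of the 10 lineage markers, and Syt1 alone had one in differentiating cells. Within 20 kb the contrast was smaller: 10 lineage markers had a peak in proliferating and 9 in differentiating cells, against 3 and 3 of the neuronal, 4 and 3 of the astrocyte, 4 and 3 of the microglial and 2 and 1 of the endothelial genes. Among all protein-coding genes, 62.7% had a peak within 20 kb in each list. A promoter peak was found at 23.7% of them in proliferating and 27.7% in differentiating cells.

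The promoter region, which begins 3000 bp before the transcription start site (TSS) at the 5′ end of the gene and ends 100 bp after it, held a peak at 6 of the 10 genes in proliferating cells (Ccnd1, Ccnd3, Cdkn1b, Cdkn2a, Cdkn2c and Myc), against 23.7% of all protein-coding genes. In differentiating cells it held a peak at these 6 and at Mycn, 7 of 10, against 27.7% of all protein-coding genes. The TSS of at least 1 annotated transcript lay under a peak at 7 genes in proliferating cells (background 22.4%), at 6 in differentiating cells (27.1%), at 5 in both (17.0%) and at 8 in either (32.5%). A peak in the window of 20 kb was found at 8 and 9 genes, in a genome where 62.7% of genes had one in each list, 53.1% in both and 72.4% in either. The promoter counts were 6 genes in both lists and 7 in either, against 17.6% and 33.8% of all genes. Ccnd2 and Cdkn1c had no peak in the promoter region or over any TSS in either list. Ccnd3 counts for the promoter region through peaks in the neighbouring gene Taf8, which stopped 2808 bp and 2136 bp short of the Ccnd3 TSS.

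**Figure D1:**
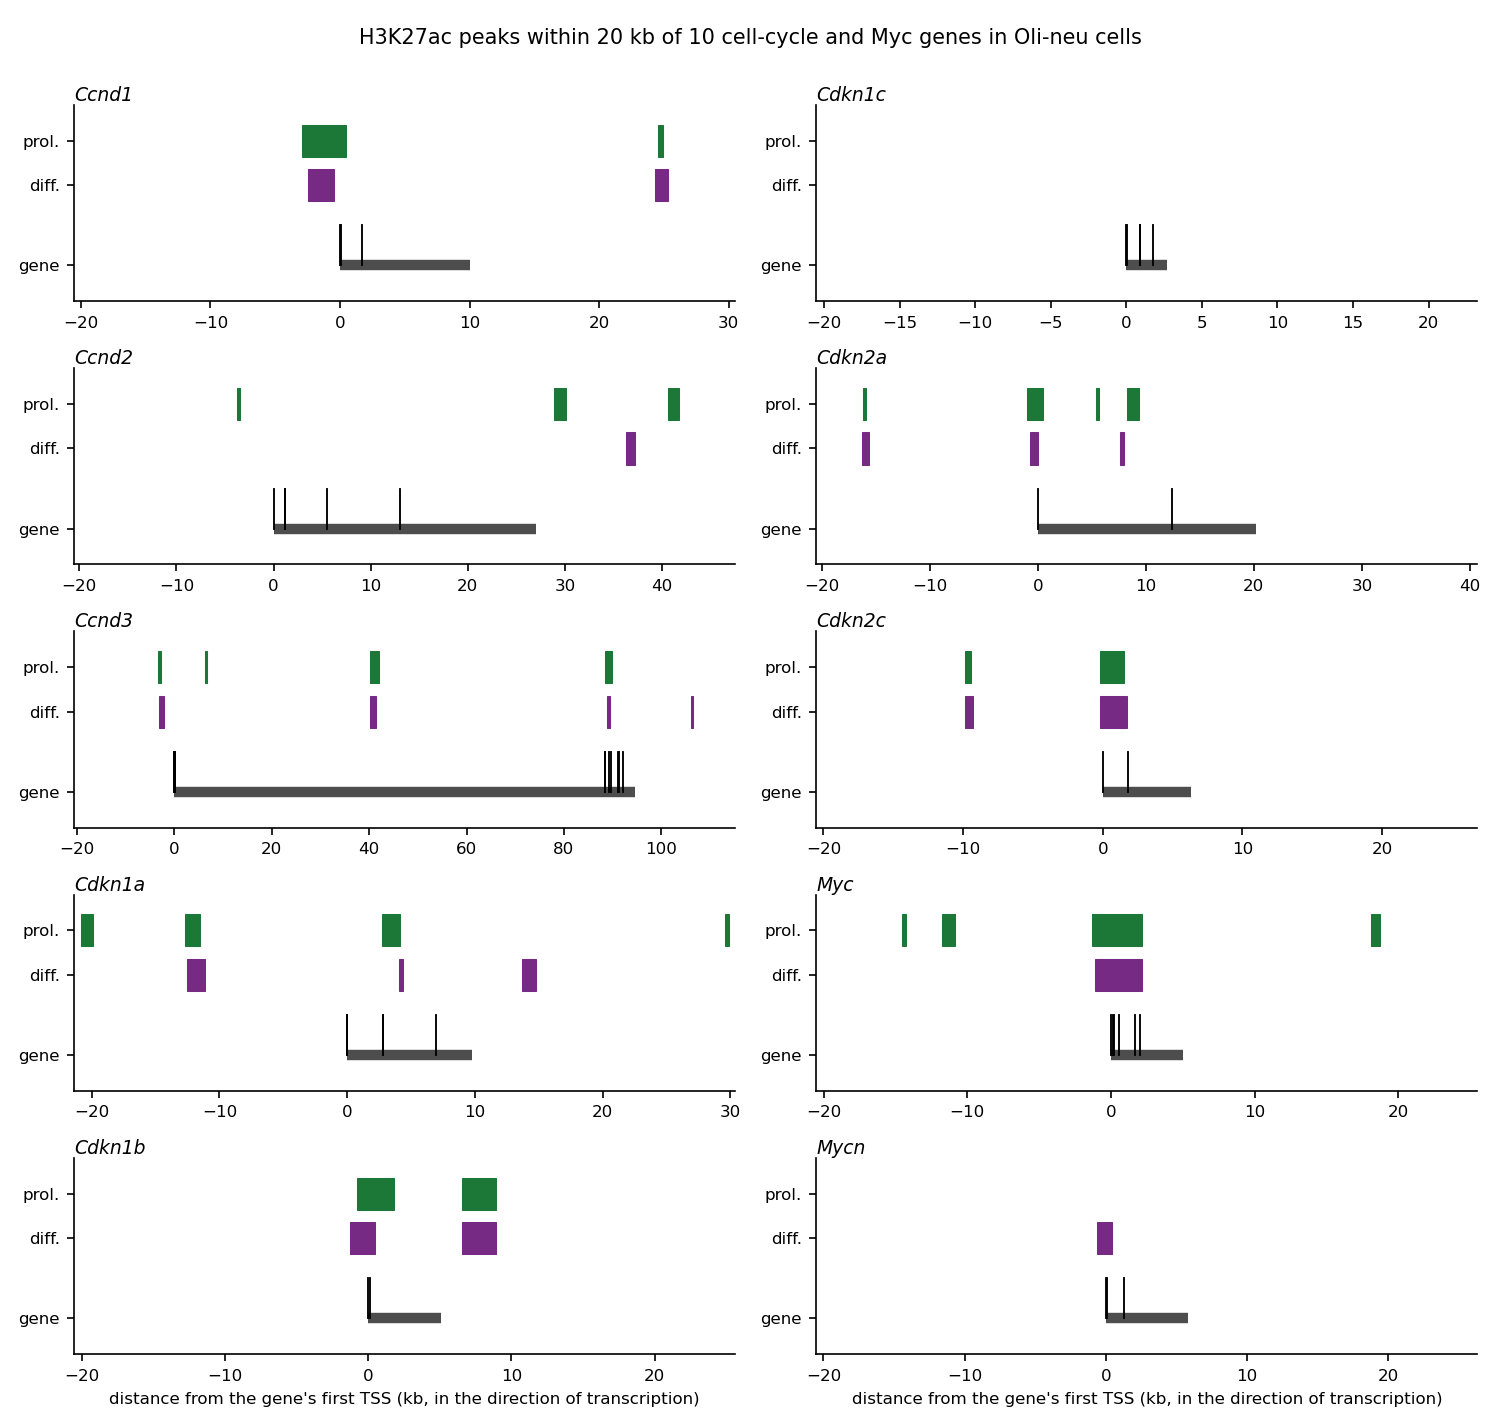
H3K27ac peaks of proliferating (green) and differentiating (purple) Oli-neu cells, 1 library each, drawn to scale along each gene. The x axis is the distance in kb from the first TSS in the direction of transcription, the grey bar is the gene body and the black ticks are annotated TSSs. Myc, Cdkn1b, Cdkn2a and Cdkn2c have a peak over the first TSS in both states, Mycn has 1 in differentiating cells, and Cdkn1c has none in its window.

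Ccnd1 encodes cyclin D1, the D cyclin most closely tied to mitogen signalling. The gene lies at chr7:144929931-144939925 on the minus strand (ENSMUSG00000070348.5). In proliferating cells a peak of 3362 bp, chr7:144939500-144942861, began 2936 bp before the TSS, ended 425 bp after it and covered the starts of Ccnd1-201 and Ccnd1-203. It was the 42nd widest of its list, with a fold enrichment of 2.50 (percentile 2.05) and a −log10 q of 2.98 (percentile 82.2). In differentiating cells the peak was 2021 bp wide, chr7:144940373-144942393, with a fold enrichment of 2.83 (percentile 15.3) and a −log10 q of 3.26 (percentile 84.0). All of its bases lay within the proliferating peak, but it ended 448 bp upstream of the first TSS, so Ccnd1 had a peak over a TSS in proliferating cells alone while its promoter region held a peak in both states.

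The remaining peaks of the Ccnd1 window, beyond the 3′ end of the gene, lay over the start of LTO1, the nearest protein-coding TSS. The call there was 390 bp wide with a −log10 q of 1.82 (percentile 42.1) in proliferating cells and 1009 bp wide with 6.52 (percentile 97.2) in differentiating cells. It was the strongest call in the Ccnd1 window in differentiating cells and belongs by position to another gene.

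Ccnd2, for cyclin D2, lies at chr6:127125162-127152193 on the minus strand (ENSMUSG00000000184.12). None of its 8 annotated transcripts had a TSS under a peak. The nearest peak upstream, chr6:127155651-127155913, was found in proliferating cells, 3458 bp from the first TSS within 9330179D12Rik, a gene antisense to Ccnd2, and had the shortest width of that list, 263 bp, with a −log10 q of 1.94 (percentile 50.3). Beyond the 3′ end of the gene, proliferating cells had a peak over the start of Gm43126 (−log10 q of 1.65, percentile 29.2) and a peak at the end of Platr31 (1.63, percentile 27.7). Differentiating cells had a peak 36292 bp downstream of the first TSS (1.63, percentile 34.2). None of these 4 peaks shared a base with a peak of the other list, and those beyond the 3′ end were nearer to the TSS of Tigar than to that of Ccnd2.

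Ccnd3, for cyclin D3, is the longest of the genes, at chr17:47505051-47599691 on the plus strand (ENSMUSG00000034165.16), with 21 annotated transcripts. No peak covered the starts within 190 bp of its 5′ end. The peaks that count for its promoter region, chr17:47501750-47502243 in proliferating cells (fold enrichment 4.40, −log10 q 3.75) and chr17:47501863-47502915 in differentiating cells (3.22 and 2.45), stopped 2808 bp and 2136 bp short of the TSS and lay in Taf8, a gene read in the opposite direction. A group of internal starts near the 3′ end, from 88385 bp downstream of the first TSS, was covered instead. In proliferating cells a peak of 1452 bp there, chr17:47593430-47594881, held 5 TSS positions with a fold enrichment of 3.13 and a −log10 q of 2.14 (percentile 60.2). In differentiating cells the call shrank to 761 bp, chr17:47593835-47594595, held only the start of Ccnd3-217 and was among the weakest of the list, with a fold enrichment of 2.59 and a −log10 q of 1.26 (percentile 4.45, q of 0.0544).

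The bases before both RefSeq starts of Ccnd3 are printed to set a start outside the peaks against a start at the edge of one: 87 bp of the internal promoter window lay under the proliferating peak and none under the differentiating peak. They are given 5′ to 3′ on the coding strand from the RefSeq promoter table of GRCm38.p6, chr17:47504801-47505050 for the first and chr17:47593217-47593466 for the internal start. Capitals mark matches to 9 motifs, searched on both strands. Among these were the GC box (GGGCGG), the CCAAT box, the E-box (CACGTG) and the TATA box (TATAAA). E2F letters were TTTGGCG or TTTCGCG, AP-1 letters TGANTCA, FOXO letters GTAAACA, TCF/LEF letters ATCAAAG and SOX letters AACAAAG.
Ccnd3 first TSS: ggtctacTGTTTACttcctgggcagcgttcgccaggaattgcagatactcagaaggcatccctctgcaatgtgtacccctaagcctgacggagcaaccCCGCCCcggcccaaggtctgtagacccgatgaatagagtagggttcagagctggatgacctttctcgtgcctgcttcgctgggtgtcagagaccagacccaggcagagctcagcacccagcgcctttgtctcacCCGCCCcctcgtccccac
Ccnd3 internal TSS: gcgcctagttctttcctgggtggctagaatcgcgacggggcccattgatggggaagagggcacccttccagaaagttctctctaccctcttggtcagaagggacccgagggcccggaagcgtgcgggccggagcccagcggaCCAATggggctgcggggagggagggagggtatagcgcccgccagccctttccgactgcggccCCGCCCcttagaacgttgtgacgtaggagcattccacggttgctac
The first holds GC boxes 152 and 18 bases before the TSS and a FOXO match at 243, and the internal one holds a CCAAT box at 108 and a GC box at 46. GC boxes were found in 46.2% of all 21263 promoter windows of the table, CCAAT in 38.2% and the FOXO letters in 3.01%. The whole window, 250 bases before to 50 after the TSS, had a CpG observed to expected ratio of 0.577 at the first start and 0.849 at the internal start, where 1 means as many CpG pairs as the base composition gives and the median window had 0.567.

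Ccnd3 also held the strongest intronic peaks of the 10 genes. In proliferating cells chr17:47545308-47547110 was 1803 bp wide with a fold enrichment of 3.83 and a −log10 q of 4.55 (percentile 94.4), and in differentiating cells chr17:47545305-47546545 was 1241 bp wide with 3.49 and 3.08 (percentile 81.7). They began 40257 bp and 40254 bp downstream of the first TSS, far from any annotated start of Ccnd3. The shared part was 1238 bp, which is 99.8% of the differentiating peak. The middle 300 bases of the shared part, chr17:47545777-47546076, are printed on the plus strand as the intronic element called in both states, with the same motifs in capitals.
Ccnd3 intron: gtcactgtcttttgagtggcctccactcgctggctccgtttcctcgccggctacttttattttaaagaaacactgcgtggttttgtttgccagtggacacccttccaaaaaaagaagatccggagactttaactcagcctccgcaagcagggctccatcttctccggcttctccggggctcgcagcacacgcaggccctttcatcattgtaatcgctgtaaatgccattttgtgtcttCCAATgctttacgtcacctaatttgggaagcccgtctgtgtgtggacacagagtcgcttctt
It holds a single CCAAT match and none of the other motifs. A further intronic peak, chr17:47511417-47511679, was listed in proliferating cells alone (−log10 q of 3.13, percentile 84.4), and a peak in Bysl, chr17:47611171-47611470, in differentiating cells alone (fold enrichment 5.04, −log10 q of 6.59, percentile 97.3), 172 bp from the TSS of Bysl.

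Cdkn1a encodes p21, a Cdk inhibitor that p53 turns on. It lies at chr17:29090976-29100727 on the plus strand (ENSMUSG00000023067.14). The first TSS had no peak within 2754 bp in proliferating or 4092 bp in differentiating cells, and the promoter region held none in either list. The internal TSSs of Cdkn1a-201 and Cdkn1a-205, 2793 bp and 2805 bp into the gene, lay under a peak of 1359 bp in proliferating cells, chr17:29093730-29095088, with a fold enrichment of 3.63 and a −log10 q of 2.53 (percentile 73.3). In differentiating cells the call there had the shortest width of that list, 279 bp, at chr17:29095068-29095346, with a fold enrichment of 3.12 and a −log10 q of 1.82 (percentile 46.5). It began 1299 bp downstream of the start of Cdkn1a-201 and shared only 21 bp, 1.55% of the proliferating peak, so the counterpart rests on its edge. The proliferating peak also covers the start of the gene AC167363.2.

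Both starts of Cdkn1a are printed in the same way, chr17:29090729-29090978 for the first and chr17:29093519-29093768 for the internal one, since they differ in base composition and 89 bp of the internal window, but none of the first, lay under the proliferating peak.
Cdkn1a first TSS: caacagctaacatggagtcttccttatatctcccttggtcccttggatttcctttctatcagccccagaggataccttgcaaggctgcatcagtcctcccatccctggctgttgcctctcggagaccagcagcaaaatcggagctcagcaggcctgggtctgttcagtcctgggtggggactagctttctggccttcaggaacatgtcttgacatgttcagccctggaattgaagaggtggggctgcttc
Cdkn1a internal TSS: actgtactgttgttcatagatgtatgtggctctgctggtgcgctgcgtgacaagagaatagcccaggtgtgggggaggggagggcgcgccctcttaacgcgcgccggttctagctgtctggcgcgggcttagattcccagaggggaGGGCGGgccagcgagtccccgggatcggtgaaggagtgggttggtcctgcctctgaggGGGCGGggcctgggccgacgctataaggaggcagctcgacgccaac
The window of the first start had a CpG ratio of 0.0892, above that of only 9.31% of windows, and matched none of the 9 motifs. The internal window had a ratio of 0.786 and GC boxes at 104 and 46 bases before the TSS.

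The strongest peaks of the Cdkn1a window lay over the start of Trp53cor1, the gene of a p53-induced long noncoding RNA (lincRNA-p21) upstream of Cdkn1a. They were chr17:29078307-29079438 in proliferating cells (fold enrichment 3.66, −log10 q of 4.99, percentile 95.6) and chr17:29078404-29079820 in differentiating cells (3.40, 4.15, percentile 90.8). These shared 1035 bp and ended 11538 bp and 11156 bp upstream of the Cdkn1a TSS. The other calls had no counterpart: in proliferating cells a peak within Trp53cor1 with a −log10 q of 1.09 and a 263 bp peak in Rab44 with 2.15, and in differentiating cells chr17:29104697-29105784 with 1.03, of which 92.6% is repeat sequence. The call in Trp53cor1 and the repeat-rich call had q values of 0.0805 and 0.093.

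Cdkn1b, for p27, lies at chr6:134920401-134925513 on the plus strand (ENSMUSG00000003031.14) and had peaks over the starts of all 3 transcripts in both states. In proliferating cells chr6:134919625-134922173 was 2549 bp wide (percentile 99.2) with a fold enrichment of 3.16 and a −log10 q of 2.90 (percentile 80.9). In differentiating cells chr6:134919162-134920851 was 1690 bp wide (percentile 93.3) with 3.40 and 3.88 (percentile 89.2). The proliferating peak reached 1772 bp into the gene and began 776 bp upstream of the TSS, and the differentiating peak reached 450 bp into it and began 1239 bp upstream. The promoter, chr6:134920151-134920400, is printed as the Cip/Kip start that was marked in both states.
Cdkn1b TSS: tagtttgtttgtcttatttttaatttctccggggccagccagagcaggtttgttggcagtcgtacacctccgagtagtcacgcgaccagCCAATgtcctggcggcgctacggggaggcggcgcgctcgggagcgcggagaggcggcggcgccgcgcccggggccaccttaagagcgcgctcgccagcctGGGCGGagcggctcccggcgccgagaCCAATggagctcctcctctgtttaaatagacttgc
It holds CCAAT boxes 161 and 35 bases before the TSS and a GC box at 61. Its CpG ratio of 1.04 exceeded that of 94.6% of windows.

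A second pair of wide peaks lay downstream of Cdkn1b, over the start of the noncoding gene Lockd and part of Gm44238. In proliferating cells chr6:134926939-134929314 was 2376 bp wide with a fold enrichment of 3.54 and a −log10 q of 4.45 (percentile 94.0), the strongest in the Cdkn1b window. In differentiating cells chr6:134926942-134929339 was 2398 bp wide with 2.98 and 2.85 (percentile 78.2). These peaks had almost the same edges, sharing 2373 bp, and began 6538 bp and 6541 bp downstream of the Cdkn1b TSS. At the promoter the percentile was higher in differentiating cells, and at Lockd it was higher in proliferating cells. The middle 300 shared bases, chr6:134927979-134928278, are printed on the plus strand for the same reason as the Ccnd3 intron.
Cdkn1b downstream: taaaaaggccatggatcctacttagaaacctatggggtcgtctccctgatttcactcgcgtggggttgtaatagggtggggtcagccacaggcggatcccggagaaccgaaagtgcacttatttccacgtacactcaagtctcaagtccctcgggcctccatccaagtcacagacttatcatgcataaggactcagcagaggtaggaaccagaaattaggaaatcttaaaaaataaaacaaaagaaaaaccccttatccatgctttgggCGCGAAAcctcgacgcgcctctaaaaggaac
The stretch holds 1 E2F match, to letters that occur in the central 300 bp of 1.27% of proliferating and 1.20% of differentiating peaks.

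Cdkn1c, for the imprinted inhibitor p57, lies at chr7:143458339-143461050 on the minus strand (ENSMUSG00000037664.13). It alone among the 10 had no peak within 20 kb in either list, which held for 27.6% of protein-coding genes. The nearest proliferating peak was 76864 bp from its TSS and the nearest differentiating peak 44893 bp. On chromosome 7 a smaller share of genes had a peak in this window than in the genome, 43.3% and 44.7%.

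Cdkn2a, at chr4:89274471-89294653 on the minus strand (ENSMUSG00000044303.6), makes the unrelated proteins p19Arf and p16Ink4a from separate starts that share downstream exons. The distal start, of Cdkn2a-202 (p19Arf), lay under a peak in both states: chr4:89294199-89295640 in proliferating cells, 1442 bp wide with a fold enrichment of 3.53 and a −log10 q of 2.54 (percentile 73.7), and chr4:89294637-89295377 in differentiating cells, 741 bp wide with 4.11 and 4.04 (percentile 90.1). The proximal start, of Cdkn2a-201 (p16Ink4a), lies 12461 bp downstream and had no peak within 3115 bp in proliferating or 4508 bp in differentiating cells. Bases before both starts are printed, chr4:89294654-89294869 for the distal and chr4:89282193-89282442 for the proximal start, on the minus strand that the gene is read from. The distal sequence stops at the first annotated exon.
Cdkn2a distal TSS: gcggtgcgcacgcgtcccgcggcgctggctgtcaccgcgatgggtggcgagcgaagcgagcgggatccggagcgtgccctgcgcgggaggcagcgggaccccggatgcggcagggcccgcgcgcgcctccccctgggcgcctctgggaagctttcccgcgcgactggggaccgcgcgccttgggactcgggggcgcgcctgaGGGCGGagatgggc
Cdkn2a proximal TSS: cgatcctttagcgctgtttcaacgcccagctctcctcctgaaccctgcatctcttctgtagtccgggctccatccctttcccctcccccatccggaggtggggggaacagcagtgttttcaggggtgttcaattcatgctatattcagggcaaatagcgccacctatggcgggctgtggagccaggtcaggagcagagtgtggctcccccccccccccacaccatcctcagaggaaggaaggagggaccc
The distal window had a GC content of 77.0% and a CpG ratio of 1.04, with 3 GC boxes, of which the printed part holds the one 48 bases before the RefSeq TSS. The proximal window had 60.3% and 0.442, and none of the motifs lies in the printed bases.

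Between the starts, proliferating cells had intronic peaks at chr4:89285307-89286390 (−log10 q of 2.18, percentile 61.9) and chr4:89288970-89289232 (1.96, percentile 51.2), and differentiating cells had chr4:89286700-89287016 (percentile 24.9). None of them had a counterpart, although the last began 309 bp from the first. Upstream of Cdkn2a, the neighbouring Ink4 gene Cdkn2b held calls in both states, chr4:89310574-89310836 with a −log10 q of 4.68 (percentile 94.8) in proliferating and chr4:89310242-89310966 with 2.52 (percentile 71.7) in differentiating cells.

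Cdkn2c, for p18Ink4c, lies at chr4:109660876-109667189 on the minus strand (ENSMUSG00000028551.14). Its distal start, of Cdkn2c-202, lay under chr4:109665689-109667352 in proliferating cells, 1664 bp wide with a fold enrichment of 3.74 and a −log10 q of 4.60 (percentile 94.5). In differentiating cells the peak was chr4:109665467-109667362, 1896 bp wide with 3.21 and 2.89 (percentile 78.9), and contained the whole proliferating peak. The peaks stopped 317 bp and 95 bp short of the start of Cdkn2c-201. The CpG ratio was 0.823 in the window of the first RefSeq start, which lay wholly under both peaks, and 0.553 in that of the second, of which 156 bp lay under the differentiating peak and none under the proliferating peak. The second window held an E2F match 200 bases before the TSS and, after the TSS, a CCAAT box and an E-box. The first window held 4 GC boxes. The start of Faf1 upstream of Cdkn2c carried the strongest call of all 25 proliferating peaks, 417 bp wide with a fold enrichment of 6.08 and a −log10 q of 7.91 (percentile 98.7), against 3.73 and 2.91 (percentile 79.3) in differentiating cells.

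Myc had the widest peaks of the 10 genes in both states. The gene lies at chr15:61985391-61990374 on the plus strand (ENSMUSG00000022346.15). The peak was 3480 bp wide in proliferating cells, chr15:61984068-61987547, the 34th widest of its list, and 3327 bp wide in differentiating cells, chr15:61984243-61987569, the 53rd widest. They shared 3305 bp and each covered the 6 TSS positions of all 8 transcripts. The fold enrichment was low, 2.48 (percentile 1.91) and 2.44 (percentile 2.40), while the −log10 q was high, 3.63 (percentile 89.3) and 4.81 (percentile 93.7). Wide peaks had a lower fold enrichment in general: the median was 3.12 among the 793 proliferating and 2.98 among the 964 differentiating peaks of at least 2000 bp, against 3.33 and 3.13 over all peaks. Even among these wide peaks Myc was at percentiles 7.06 and 6.43 by fold enrichment. Broad peak callers give the mean over the region, and the lists do not show where within it the signal was highest.

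**Figure D2:**
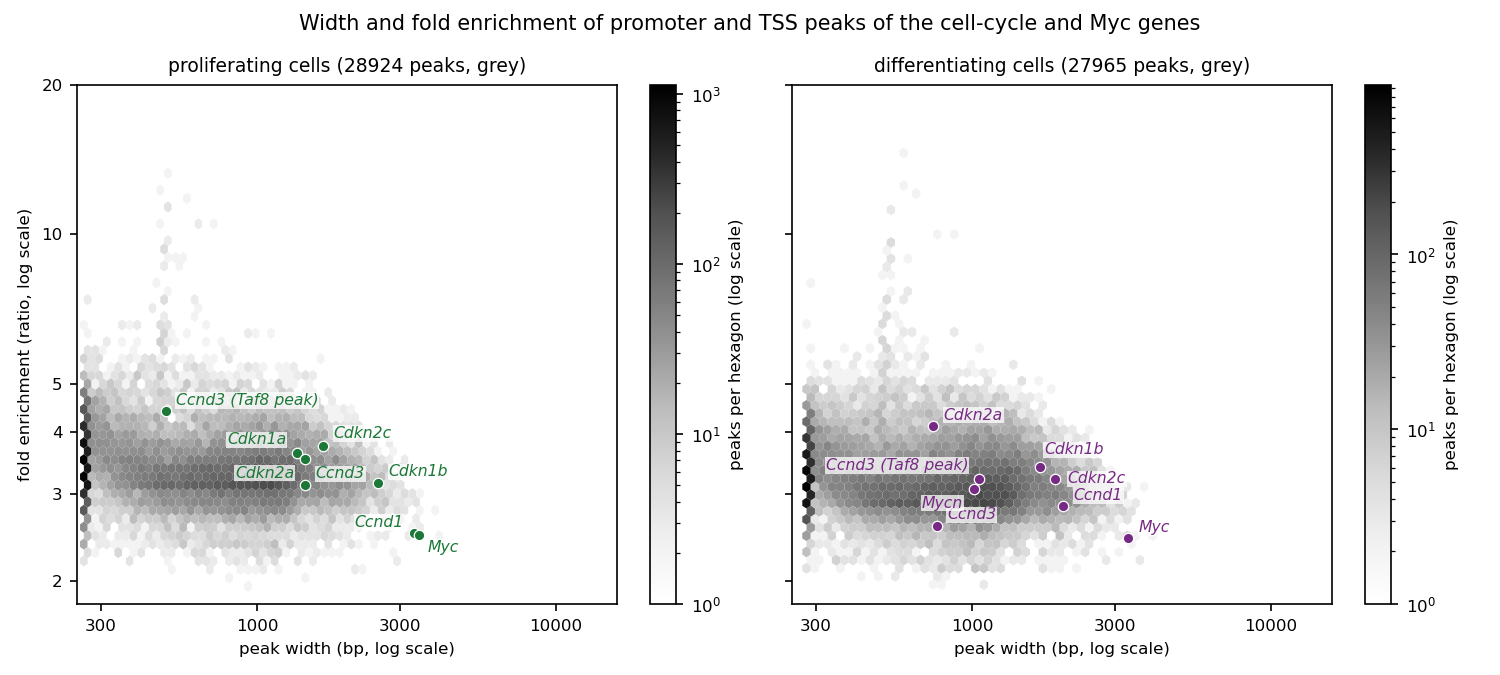
Peak width in bp (x axis, log scale) against the authors' fold enrichment (y axis, log scale) for all peaks of each list, as grey hexagons shaded by the number of peaks, with the peaks in the promoter region or over a TSS of the named genes as coloured points. Myc lies at the wide and low end in both states, at 3480 bp and 2.48 in proliferating and 3327 bp and 2.44 in differentiating cells, and Ccnd1 lies beside it in proliferating cells, at 3362 bp and 2.50.

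Peaks were dense on the chromosome of Myc. Of the 785 protein-coding genes of chromosome 15, 93.1% had a peak within 20 kb in proliferating and 93.0% in differentiating cells, the highest share among the chromosomes of the 10 genes, and 33.6% and 39.9% had a peak over a TSS. The median fold enrichment on chromosome 15 was 3.15 and 2.96, below the 3.33 and 3.13 of the whole lists, and Myc was at percentiles 0.782 and 3.27 of its chromosome by fold enrichment and at 93.5 and 95.5 by −log10 q. Proliferating cells had 3 further peaks around Myc, 14235 bp and 10850 bp upstream and 18110 bp downstream of the TSS, with −log10 q values of 2.01, 1.20 and 1.54. None had a counterpart, and the nearest differentiating peak was at least 7288 bp away.

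Mycn, for N-Myc, lies at chr12:12936093-12941914 on the minus strand (ENSMUSG00000037169.15). It had a peak in differentiating cells alone, chr12:12941486-12942498, over the starts of Mycn-201 and Mycn-203. The peak was 1013 bp wide, with a fold enrichment of 3.07 and a −log10 q of 1.77, both at percentile 43.5, and it was the only member peak over a TSS without a counterpart. In proliferating cells the nearest peak was 65220 bp from the TSS. A promoter peak in differentiating cells alone was found at 10.1% of protein-coding genes, and 1 in proliferating cells alone at 6.13%. The bases before the annotated exons, chr12:12941915-12942086 on the minus strand, are printed for the cluster of E2F letters.
Mycn TSS: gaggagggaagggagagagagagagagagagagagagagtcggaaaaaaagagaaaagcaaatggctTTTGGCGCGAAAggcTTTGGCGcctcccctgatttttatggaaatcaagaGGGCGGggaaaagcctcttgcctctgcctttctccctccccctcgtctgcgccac
E2F matches began 183, 178 and 168 bases before the RefSeq TSS, the first and second of them sharing bases, and a GC box at 133. The E2F letters occur in 2.97% of the 21263 promoter windows, and among the 10 windows of the members in those of Mycn and of the second start of Cdkn2c. The CpG ratio was 0.584, near the median.

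RefSeq windows were at hand for 6 of the 10 genes, Ccnd3, Cdkn1a, Cdkn1b, Cdkn2a, Cdkn2c and Mycn, which have 10 windows. Among these, 5 windows had a CpG ratio of at least 0.6 and all 5 shared bases with a peak of either list, as did 53.2% of all windows of that kind. Of the 5 windows below 0.6, those of Mycn and of the second start of Cdkn2c did so, against 9.72% of all such windows. In Ccnd3, Cdkn1a and Cdkn2a, which each have a window under a peak and a window under none, the window with the higher CpG ratio was the one under the peak. In Ccnd3 and Cdkn1a that peak was the proliferating one, and 87 bp and 89 bp of the window lay under it. This is a description of 10 windows, several of the same gene.

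**Figure D3:**
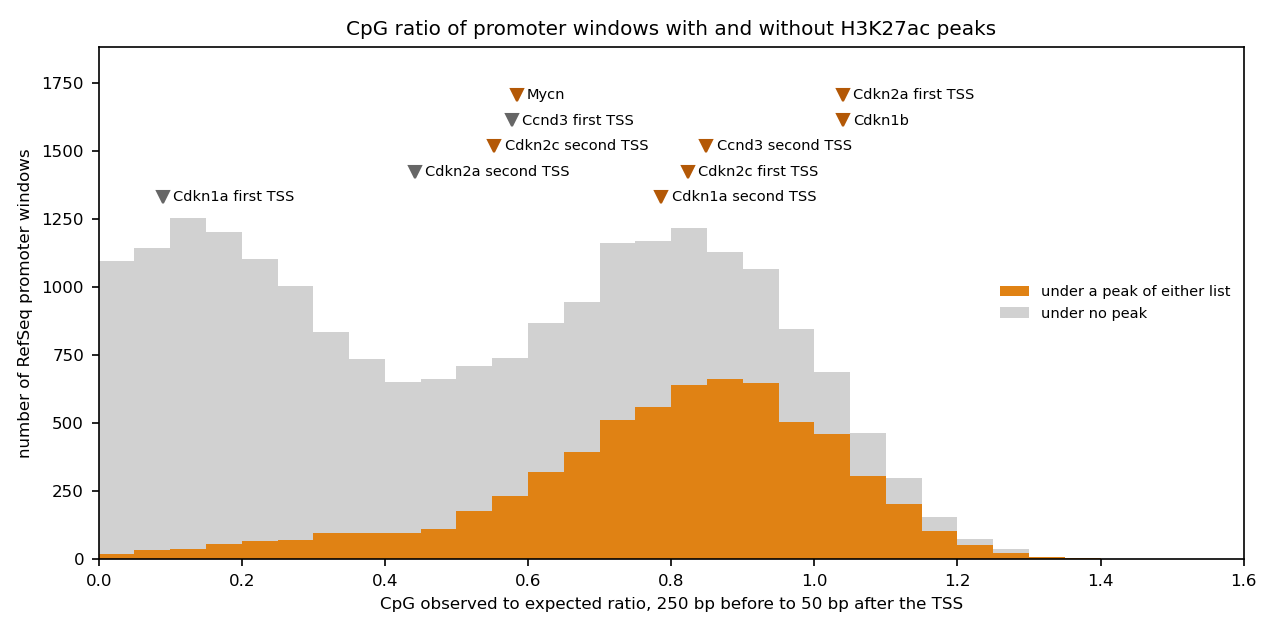
CpG observed to expected ratio (x axis) of 21263 RefSeq promoter windows, with the number of windows in each bin on the y axis, split into windows that share bases with a peak of either list (orange) and those that do not (grey). Triangles mark the 10 windows of the named genes in the same colours, at heights chosen only to separate the labels. The windows under no peak, the first starts of Ccnd3 and Cdkn1a and the second of Cdkn2a, have ratios of 0.577, 0.0892 and 0.442.

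Across the genes, 14 of the 25 proliferating peaks had a counterpart in the other list (56.0%, exact 95% binomial interval 34.9 to 75.6) and 14 of the 19 differentiating peaks (73.7%, 48.8 to 90.9), where 29.2% and 30.1% of all peaks had one. The intervals cover counting error only, and peaks of the same gene are not independent. By position, all 7 proliferating peaks over a TSS of these genes had a counterpart and 5 of the 6 in differentiating cells. The differentiating counterparts at Ccnd1 and Cdkn1a lay over no TSS, and the one at Cdkn1a shared only 21 bp. A peak over a TSS in both lists was thus found at 5 genes. Of the peaks over another gene's TSS, 4 of 5 and 5 of 5 had a counterpart. Of those over no gene's TSS, 3 of 13 and 4 of 8 did. Over the whole lists, 80.3% of proliferating and 69.9% of differentiating peaks over a protein-coding TSS had a counterpart, and 18.7% and 19.3% of peaks over no gene's TSS did. With a reciprocal overlap of at least 0.5 the member shares were 36.0% and 47.4%, against 16.7% and 17.3% of all peaks. Counted from the first TSS of each gene, the nearest protein-coding TSS was that of a member for 17 proliferating and 11 differentiating peaks. Of these, 9 in each state had a counterpart. The other 8 peaks in each state were nearer to the first TSS of a neighbour such as LTO1, Tigar, Taf8, Bysl, Rab44, Cdkn2b or Faf1. These 8 include the peaks over the internal starts of Ccnd3, centred 17337 bp and 17277 bp from the first TSS of Bysl. Median −log10 q was 2.53 and 2.89 for the member peaks, against 1.93 and 1.89 over the lists. Median width was 1084 bp and 1013 bp against 652 bp and 755 bp. Peaks over a protein-coding TSS in the whole lists were closer to the members, with medians of 2.74 and 2.80 and of 939 bp and 967 bp.

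**Figure D4:**
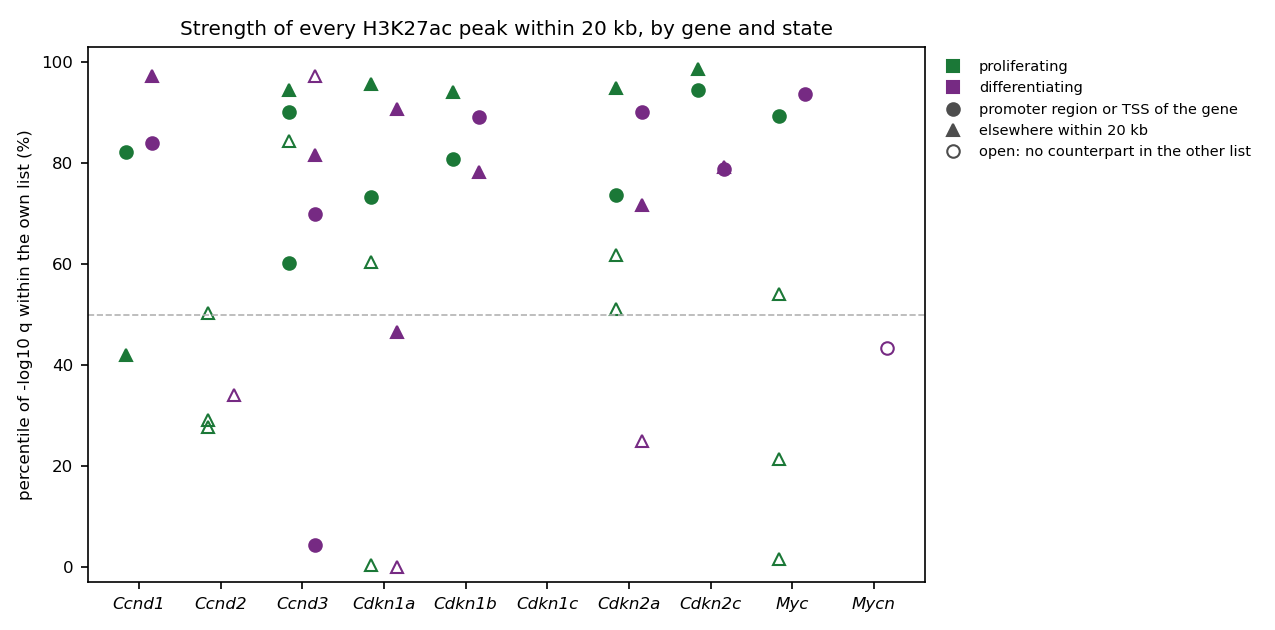
Percentile of −log10 q within its own list (y axis, in percent) for every peak within 20 kb of each gene, in proliferating (green) and differentiating (purple) cells. Circles are peaks in the promoter region or over a TSS, triangles are other peaks, open symbols have no counterpart in the other list, and the dashed line is the median of the list. Filled circles lie at 60.2 or above, except that of Ccnd3 in differentiating cells at 4.45.

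The states were ordered differently from gene to gene. By percentile of −log10 q the peak over the TSS or in the promoter region ranked higher in differentiating cells at Ccnd1 (82.2 and 84.0), Cdkn1b (80.9 and 89.2), Cdkn2a (73.7 and 90.1) and Myc (89.3 and 93.7), and higher in proliferating cells at Cdkn2c (94.5 and 78.9) and at the internal starts of Ccnd3 (60.2 and 4.45). At Ccnd1 and Myc the percentiles differed by less than 5 points, the shift counted as a move when other settings were tried. Inhibitor genes were found on both sides, and D cyclins only with Ccnd1 counted. The Cdkn2a peak lay over the start of p19Arf, while the start of the Ink4 inhibitor p16Ink4a had no peak over it in either list. The Ccnd3 promoter region, whose peak lies in Taf8, gave 90.2 and 70.0. Cdkn1a had a peak over a TSS in proliferating cells alone and is left out of this order. The same peaks were narrower in differentiating cells at Ccnd1, at the internal starts of Ccnd3, at Cdkn1b, Cdkn2a and Myc, and wider at Cdkn2c and in the Ccnd3 promoter region. The list from differentiating cells had wider peaks as a whole, with a median of 755 bp against 652 bp.

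Partners of these genes at the G1/S transition were read in the same way. Of 21 such genes, 11 had a promoter peak in proliferating and 9 in differentiating cells, 8 of them in both, against 23.7%, 27.7% and 17.6% of all protein-coding genes. A peak lay over a TSS at 12 and 10 of them (22.4% and 27.1% of all genes) and within 20 kb of 18 and 16 (62.7% in each list). Promoter peaks in both states were found at Cdk2 and Cdk4, the kinases bound by cyclins E and D, E2f1 and the retinoblastoma relative Rbl1. They were also found at the Ink4 gene Cdkn2d, the phosphatase Cdc25a, and Trp53 with its inhibitor Mdm2. Ccne2 and Ccna2, for cyclins E2 and A2, and Rb1 had a promoter peak in proliferating cells alone, though Ccna2 had a peak over a TSS in both. Cdkn2b had a promoter peak in differentiating cells alone (percentile of −log10 q 71.7). The proliferating call at Cdkn2b (percentile 94.8) lay wholly within that peak but outside the promoter region. Mdm2 had the strongest promoter peak, with a fold enrichment of 7.30 (percentile of −log10 q 99.7) and 5.82 (99.5). Cdk4 was at percentile 5.99 in proliferating and 93.7 in differentiating cells, and Rbl1 at 98.7 and 78.7. E2f1 was at 8.07 and 59.2, with no peak over a TSS in proliferating cells, and Trp53 at 74.0 and 14.5. The proliferating call at Rb1 had the shortest width of that list, 263 bp, and lay over no TSS of Rb1.

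In the Myc network, 5 of 11 genes had a promoter peak in proliferating cells and 7 of 11 in differentiating cells. The shares of all protein-coding genes were 23.7% and 27.7%. A peak within 20 kb was found at 8 and 11 of them, where 62.7% of all genes had one in each list. Mnt, Mga, Mlx, Mxd3 and Mxd4, which encode other proteins of the Max and Mlx network, had a promoter peak in both. Zbtb17, for the Myc partner Miz1, and Fbxw7, for the ubiquitin ligase subunit that marks Myc for degradation, had one in differentiating cells alone, at percentiles 96.4 and 79.6 of −log10 q. Mxd4 was at percentiles 96.3 and 99.1. Max itself had no promoter peak in either list.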

How the data were processed

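Oli-neu H3K27ac ChIP-seq was analysed in 2 states, with 1 library each. The 6 ATAC-seq samples (3 with siCtr, 3 with siPadi2) were not analysed here. The authors mapped reads to GRCm38/mm10 with Bowtie2 2.1.0, kept uniquely mapped reads, removed PCR duplicates with SAMtools, called broad peaks with MACS2 2.0.10 and removed blacklisted regions. No input library is named in the sources used here. The deposited lists give each peak a text cell of 3 values, taken in the peak caller's order as a fold enrichment, which is a ratio, and the −log10 of p and of q, since no header names them. Some peaks have a q value above the cutoff given in the methods, and all deposited peaks were kept.

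Starts were converted to 1-based coordinates. Genes and transcripts came from GENCODE M21, and promoter sequences and motifs (both strands) from RefSeq GRCm38.p6. Any shared base counted as overlap. The members and gene lists were chosen with earlier results of these data known. Named genes are the members, other genes their peaks touch or lie nearest to, and listed genes with a promoter peak. Max was named after its values were seen. Python 3.11.15 with numpy 2.4.6, scipy 1.17.1 and matplotlib 3.10.9 was used. Overlap calls were tested on simulated peaks: 100% of 200 planted TSS peaks and of their counterparts were found. All were placed so as to overlap, so this checks the computation and not the reliability of the deposited peaks. Alternatives covered the window, the promoter region, the overlap, the transcripts, the threshold and the measure ranked.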

Additional observations from a re-analysis of the deposited data

How the results depend on the processing

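No paired analysis was possible because each state has 1 library, and the samples that share replicate numbers (siCtr and siPadi2) were not analysed here. The number of peaks taken fell from 25 to 16 in proliferating cells with a window of 10 kb. It rose from 19 to 32 in differentiating cells with 50 kb. Without peaks nearer to another protein-coding gene's first TSS, which drops the call at the internal Ccnd3 starts, it fell to 11 in differentiating cells. With a −log10 q of at least 5 it fell to 1 and 2, the number of genes with a promoter peak or a peak over a TSS fell to 0 in both lists, and the share of peaks with a counterpart fell to 0% in both. With a reciprocal overlap of at least 0.5 the share fell from 56.0% to 36.0% in proliferating and from 73.7% to 47.4% in differentiating cells. A promoter region of another extent, every transcript's TSS, protein-coding transcripts only, a q of at most 0.05 and a gap of 1000 bp moved these counts by less than 1.5 times. Ranking the peaks of a gene by fold enrichment moved the percentile of the strongest peak most for Myc in differentiating cells, from 93.7 to 2.40. With 1 library per state and no read counts, a weak peak listed in a single state cannot be told apart from a call near the threshold.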
